A study of Drosophila melanogaster with 10 samples.

Results

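The genes described here build the autophagy pathway and the vacuolar proton pump, or V-ATPase, of *Drosophila* mushroom body neurons. Members were probe sets whose only gene symbol in the platform annotation begins with Atg and a digit or with Vha, or is *Vps15*, *Pi3K59F*, *ref(2)P* or *Uvrag*. Each gene was read from its probe set with the highest mean over 9 arrays. This gave 53 genes, 24 of autophagy and 29 of the V-ATPase, of 10844 genes with a symbol of their own on the array. They have 60 probe sets of the 13966 tested, and 47 of the 53 genes have only 1. The rule itself uses no measured difference between ages, but it was set with earlier results of these data known.

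RNA came from laser-captured mushroom body neurons at 5 h after puparium formation (3 arrays) and at 0 h (6 arrays, from white pupae). At both ages the animals, in a yw/w background, carried UAS-EcRB1[W650A], which encodes a dominant negative ecdysone receptor, and UAS-mCD8::GFP, a fluorescent label of the cell membrane. Both were driven by OK107-GAL4, an enhancer trap active in mushroom body neurons and in some cells outside them. Each array pooled 40 captures of some 100 cell bodies. The labels call the arrays biological replicates and do not give the number of animals behind each. Arrays from y,w animals, to which the study set these, are not used here, so the values describe age under the dominant negative receptor and not the effect of the receptor itself. 1 further array has a title that gives 5 h and an age that gives 0 h, and it entered no comparison.

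Autophagy encloses cytoplasm in a double membrane and delivers it to the lysosome. A kinase complex around Atg1 starts the process, a lipid kinase complex marks the membrane, Atg9, Atg2 and Atg18 proteins supply lipid, and a ubiquitin-like system couples Atg8 to the growing membrane. The V-ATPase acidifies lysosomes, endosomes and synaptic vesicles: its V1 sector hydrolyses ATP in the cytosol, and its V0 sector carries protons through the membrane. Mushroom body gamma neurons prune their larval axons after puparium formation in response to ecdysone. The lipid kinase complex, which also acts on endosomes, is known to be needed for this pruning, which does not by itself imply a need for autophagy.

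The 0 h arrays fell into sets that follow their replicate numbers. Over all probe sets, replicates 1 to 3 correlated with one another at 0.989 to 0.991 and replicates 4 to 6 at 0.970 to 0.981, against 0.948 to 0.974 between the sets. The correlation of 5 h arrays with 0 h arrays was 0.978 to 0.986 for replicates 1 to 3 and 0.949 to 0.973 for replicates 4 to 6. The labels name no batch. For actin, the control probe sets at the 3' end exceeded those at the 5' end, a measure of RNA or amplification bias, by 8.55 ± 0.08 log2 units at 5 h (SD over 3 arrays) and by 7.81 ± 0.28 at 0 h (SD over 6 arrays). A two-sided exact permutation test gave p = 0.024 for it, the smallest it can give with these arrays, and p = 0.17 for the same gap of GAPDH. The actin gap did not overlap between ages, at 8.465 to 8.627 at 5 h and 7.452 to 8.101 at 0 h. Fits below that take it as a covariate can therefore hardly separate it from age.

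Markers of the labelled tissue and of others gave a signal. All 9 mushroom body markers measured lay above background on average, with mean log2 signals from 4.06 to 10.53. So did 9207 of all 13966 probe sets, so lying above background does not by itself identify the tissue. The summed linear signal of the mushroom body markers was 4963 to 5252 at 5 h and 3319 to 4603 at 0 h. Such sums, here and below, mostly reflect the brightest markers of a list. By mean log2 signal 7 mushroom body markers were higher at 5 h and 2 lower. Of 7 general neuron markers, 5 lay above background. Glial markers summed to 621 to 764 at 5 h and 278 to 455 at 0 h, with 8 of 9 above background. They were divided, with 5 higher at 5 h by mean log2 signal and 4 lower (*moody*, *Gs2*, *loco* and *Gli*). Fat body markers, all 4 above background, summed to 821 to 1595 at 5 h and 480 to 2573 at 0 h. Hemocyte markers, 2 of 5 above background, summed to 147 to 190 at 5 h and 96 to 135 at 0 h. Those 2, *Pxn* and *crq*, had a higher mean log2 signal at 5 h, and the other 3 a lower one. Salivary gland markers summed to 88 to 97 at 5 h and 97 to 1287 at 0 h, with 3 of 6 above background; without 0 h replicate 2 the highest 0 h sum was 113. Past the test described below, 2 of 9 mushroom body, 1 of 7 neuron and 3 of 9 glial markers were higher at 5 h, against 1.01% of all probe sets. Fewer cells of a type and less RNA per cell cannot be told apart in such samples, and the part of these shifts in the results below was not tested.

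Values below are the deposited log2 signals, named levels. Background is 3.73, the highest among 8 controls that match no fly sequence. Each probe set has its own probes, so levels of different genes are set side by side without ranking the amounts of mRNA. Most members gave a signal: 19 of 24 autophagy genes and 20 of 29 V-ATPase genes lay above background on all 9 arrays.

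In the Atg1 complex, *Atg1*, the kinase that starts autophagy, had levels of 6.50, 6.70 and 6.47 at 5 h, against 5.69, 6.38 and 6.74 at 0 h (lowest, median and highest). The 5 h arrays lay within the 0 h range. *Atg13*, the subunit that couples Atg1 to nutrient signalling, averaged 7.76 ± 0.17 at 5 h and 7.67 ± 0.36 at 0 h, while a dimmer probe set of the gene averaged 4.08 at both ages. *Atg101*, a partner of Atg13, was near background at 3.82 ± 0.05 at 5 h and 4.14 ± 0.23 at 0 h. *Atg17*, the scaffold of the complex, was below background on every array, at 3.0, 3.08 and 2.84 at 5 h, against 2.91, 3.36 and 3.69 at 0 h.

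All 5 genes of the lipid kinase complex lay above background on all 9 arrays. *Pi3K59F*, the catalytic subunit that makes phosphatidylinositol 3-phosphate, had levels of 7.35, 7.58 and 7.70 at 5 h, against 6.92, 7.39 and 7.66 at 0 h, so the ages overlapped. *Vps15*, its regulatory subunit, had levels of 5.86, 6.01 and 6.33 at 5 h, against 5.00, 5.49 and 5.90 at 0 h, and only the lowest 5 h array lay below the highest 0 h array. *Atg6*, the fly Beclin, averaged 6.53 ± 0.16 at 5 h and 6.26 ± 0.32 at 0 h. *Atg14*, which directs the complex to autophagy, averaged 6.54 ± 0.28 at 5 h and 6.36 ± 0.34 at 0 h. *Uvrag*, which directs it to endosomes instead, averaged 5.35 ± 0.31 at 5 h and 5.17 ± 0.45 at 0 h.

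Among the genes for membrane supply, *Atg9*, the transmembrane protein of the core pathway, varied little, with levels of 7.19, 7.01 and 6.98 at 5 h and 6.95, 7.12 and 7.31 at 0 h. *Atg18a*, which binds the lipid made by Pi3K59F, had levels of 6.34, 6.49 and 6.73 at 5 h, against 5.74, 6.19 and 6.41 at 0 h. Most 5 h arrays of *Atg18a* thus lay above all 0 h arrays, with an overlap at the lowest. *Atg2*, a lipid transfer protein, averaged 5.86 ± 0.09 at 5 h and 6.08 ± 0.37 at 0 h, and *Atg18b* was below background throughout.

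In the conjugation system, *Atg8a*, the ubiquitin-like protein that is coupled to the autophagosome membrane, read 8.74, 9.07 and 8.92 at 5 h, against 8.42, 8.77 and 9.02 at 0 h. The ages overlapped, and every array lay far above background, whereas the second gene *Atg8b* averaged 2.82 ± 0.03 at 5 h and 2.95 ± 0.18 at 0 h, below it. *Atg3*, the enzyme that hands Atg8 to lipid, had levels of 7.46, 7.72 and 7.66 at 5 h, against 6.63, 7.38 and 7.68 at 0 h. *Atg4a* and *Atg4b*, proteases that trim Atg8, averaged 6.74 ± 0.08 and 5.79 ± 0.20 at 5 h, against 6.51 ± 0.24 and 5.82 ± 0.33 at 0 h.

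The genes that make the Atg12 to Atg5 conjugate were dimmer, apart from *Atg10*. *Atg12*, the second ubiquitin-like protein, had levels of 3.36, 3.79 and 3.52 at 5 h, against 3.63, 4.04 and 4.48 at 0 h, and was above background on 6 of 9 arrays. *Atg10*, which joins Atg12 to Atg5, had levels of 6.14, 6.05 and 6.08 at 5 h, against 6.16, 6.26 and 6.70 at 0 h. Its ages did not overlap, by a margin of hundredths. *Atg5* averaged 4.39 ± 0.09 at 5 h and 4.32 ± 0.12 at 0 h, and *Atg16*, which recruits the conjugate to the membrane, 4.88 ± 0.17 at 5 h and 4.76 ± 0.30 at 0 h. *Atg7*, the activating enzyme of both branches, was below background on every array with its 1 probe set.

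*ref(2)P*, the fly p62, carries ubiquitinated cargo into autophagosomes and is itself degraded there. It had levels of 5.80, 5.69 and 5.97 at 5 h, against 5.95, 6.16 and 6.46 at 0 h. All but the highest 5 h array lay below every 0 h array.

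**Figure D1:**
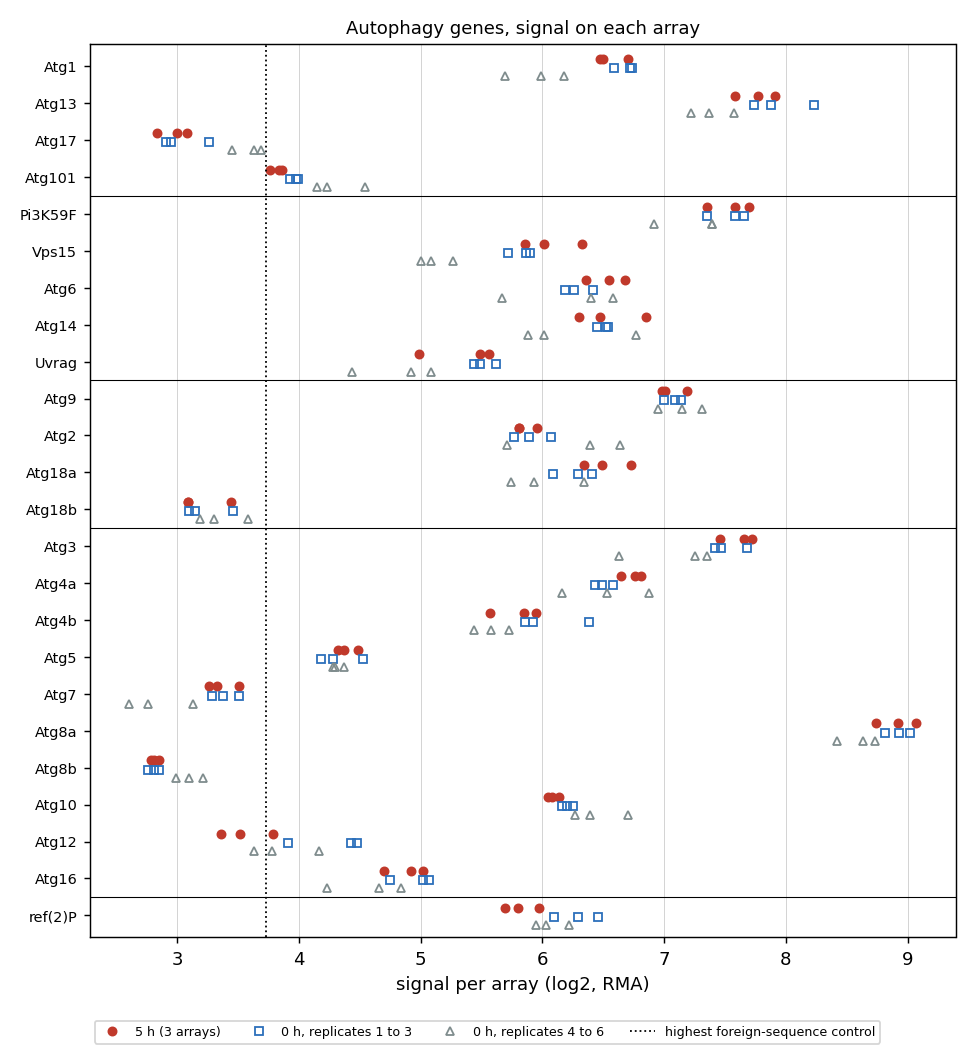
Levels of the 24 autophagy genes (rows, ordered by step of the pathway) on each array (horizontal axis, log2 RMA signal). Filled circles are the 3 arrays at 5 h, open squares 0 h replicates 1 to 3 and open triangles 0 h replicates 4 to 6; the dotted line marks the highest foreign-sequence control at 3.73. *Atg8a* is the brightest gene, and *Atg17*, *Atg18b*, *Atg7* and *Atg8b* lie left of the line on every array.

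In the V1 sector the catalytic A subunit was represented by *Vha68-3* alone, below background on every array; *Vha68-1* and *Vha68-2* have no probe set of their own here. *Vha55*, the B subunit, had levels of 3.94, 4.06 and 4.05 at 5 h, against 3.84, 3.89 and 4.19 at 0 h, just above background at both ages. The stalk subunits were far brighter. *Vha26* (E) had levels of 9.44, 9.30 and 9.26 at 5 h, against 8.21, 8.85 and 9.53 at 0 h. *Vha14-1* (F) had levels of 7.51, 7.78 and 7.57 at 5 h, against 7.59, 8.28 and 8.90 at 0 h. These stalk genes lay on opposite sides of their 0 h medians at 5 h, *Vha26* above and *Vha14-1* below on every 5 h array.

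*Vha13* (G), also of the stalk, averaged 8.72 ± 0.05 at 5 h and 8.89 ± 0.48 at 0 h. *Vha44* (C), a subunit that holds V1 to V0, averaged 7.05 ± 0.10 at 5 h and 7.31 ± 0.20 at 0 h. *VhaSFD* (H), which inhibits the free V1 sector, had levels of 5.29, 5.20 and 5.21 at 5 h, against 4.89, 5.19 and 5.62 at 0 h, all 5 h values lying inside the 0 h range. A second probe set of *VhaSFD* averaged 5.07 ± 0.11 at 5 h and 4.90 ± 0.10 at 0 h.

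The D subunit showed how far gene copies differed in signal. *Vha36-1* averaged 7.95 ± 0.15 at 5 h and 7.96 ± 0.50 at 0 h. Its copy *Vha36-2* read 4.26, 4.10 and 4.12 at 5 h, against 4.29, 4.4 and 5.15 at 0 h, and *Vha36-3* averaged 3.71 ± 0.02 at 5 h and 3.98 ± 0.20 at 0 h. Likewise *Vha14-2*, the copy of *Vha14-1*, was below background on every array. Several such copies are known mainly from testis.

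In the V0 sector 1 copy of most subunits was bright and the other copies were dim. *Vha100-1*, the a subunit known for its role at fly synapses, had levels of 7.47, 7.76 and 7.81 at 5 h, against 7.46, 7.85 and 8.46 at 0 h, and the ages overlapped. Its copies *Vha100-2*, *Vha100-4* and *Vha100-5* averaged 3.49, 3.37 and 3.73 at 5 h, against 3.54, 3.40 and 3.98 at 0 h, close to background. *Vha16-1*, of the proton-carrying c ring, had levels of 6.99, 7.51 and 7.55 at 5 h, against 6.91, 6.95 and 7.26 at 0 h. Most of its 5 h arrays lay above all 0 h arrays, whereas its copies *Vha16-2*, *Vha16-4* and *Vha16-5* had mean levels of 3.74, 4.45 and 5.59 at 5 h, against 3.91, 4.61 and 5.66 at 0 h.

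*VhaPPA1-1*, the other kind of ring subunit, averaged 9.07 ± 0.15 at 5 h and 9.02 ± 0.32 at 0 h, and its copy *VhaPPA1-2* 4.79 ± 0.09 at 5 h and 4.96 ± 0.22 at 0 h. *VhaAC39-1*, the d subunit that links the ring to the stalk, had levels of 6.44, 6.40 and 6.71 at 5 h, against 5.58, 6.02 and 6.50 at 0 h, while *VhaAC39-2* was below background. The small e subunit was the exception, with 2 bright copies. *VhaM9.7-a* had levels of 6.91, 7.13 and 6.93 at 5 h, against 7.34, 7.48 and 7.68 at 0 h, and *VhaM9.7-b* averaged 7.62 ± 0.03 at 5 h and 7.62 ± 0.38 at 0 h. All 5 h arrays of *VhaM9.7-a* lay below all its 0 h arrays, whereas those of *VhaM9.7-b* lay inside the 0 h range.

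Of the accessory genes, *VhaAC45*, which assists pump assembly and targeting, had levels of 7.25, 7.66 and 7.62 at 5 h, against 6.13, 6.45 and 7.22 at 0 h. All 5 h arrays lay above all 0 h arrays. *VhaAC45RP*, a related gene, read 8.81, 9.36 and 9.63 at 5 h, against 9.16, 9.38 and 9.47 at 0 h, and its 5 h arrays spanned more than the whole 0 h range. Further probe sets of *Atg101*, *Atg16* and *VhaPPA1-1* lay below background on average.

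**Figure D2:**
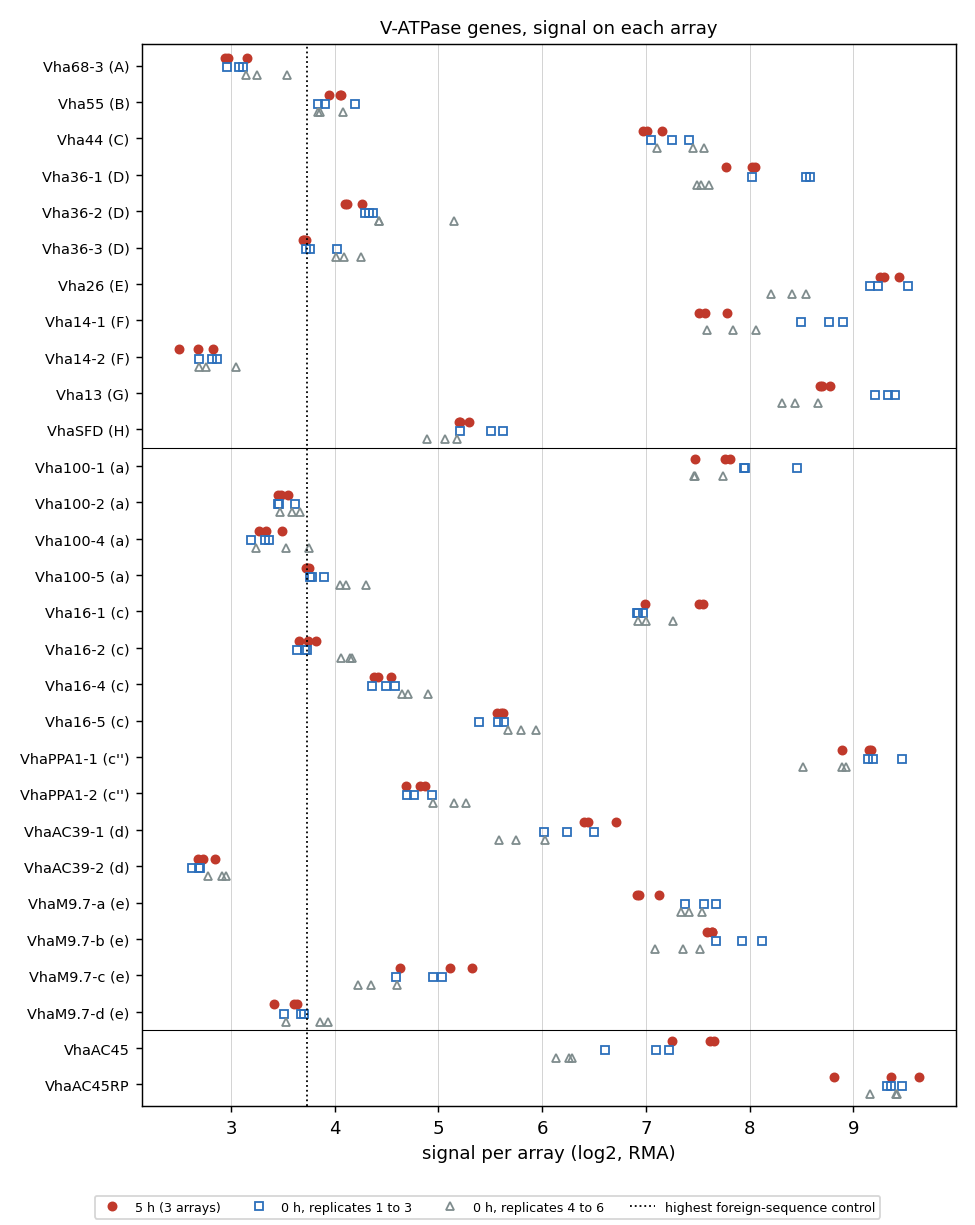
Levels of the 29 V-ATPase genes (rows, with the subunit letter, ordered by V1, V0 and accessory) on each array (horizontal axis, log2 RMA signal). Filled circles are the 3 arrays at 5 h, open squares 0 h replicates 1 to 3 and open triangles 0 h replicates 4 to 6; the dotted line marks the highest foreign-sequence control at 3.73. For the D, F, a, c, c'' and d subunits 1 copy stands well to the right of the others, and *VhaM9.7-a* and *VhaM9.7-b* are both bright.

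Side by side, the median of the members' mean levels was 6.03 for autophagy and 5.24 for the V-ATPase, against 4.36 for all probe sets. The V-ATPase genes spread wider and fell into a bright and a dim part: 13 had a mean above 6, with a median of 7.79, and 16 had a mean of 6 or below, with a median of 3.89. The value of 6 was chosen after the levels were seen and serves only as a description. Among genes above background on average, 20 of 24 and 23 of 29, the order turned: the median was 6.26 for autophagy and 6.90 for the V-ATPase. Within single arrays the autophagy median exceeded the V-ATPase median by 0.55 to 0.73 at 5 h and by 0.45 to 1.03 at 0 h, so the difference between the lists in level was present on every array and overlapped between ages.

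No member of either list passed the test between the ages. limma at a Benjamini-Hochberg adjusted p of 0.05 called 0 of 53 genes. Of all probe sets it called 1.25%, with 1.01% higher at 5 h and 0.236% lower. At an unadjusted p of 0.05, autophagy had 2 genes higher and 3 lower and the V-ATPase 3 higher and 2 lower, together 10 of 53, against 14.7% of all probe sets (9.17% higher and 5.52% lower). Groups did not overlap for 1 member that was higher at 5 h, *VhaAC45*, and for 5 that were lower, *Atg101*, *Atg10*, *Vha36-2*, *Vha100-5* and *VhaM9.7-a*, against 5.39% and 4.4% of all probe sets, 9.79% together. The 95% interval of the difference lay within 1 log2 unit of 0 for 49 of 53 genes, all but *Vps15*, *Vha26*, *Vha14-1* and *VhaAC45*.

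**Figure D3:**
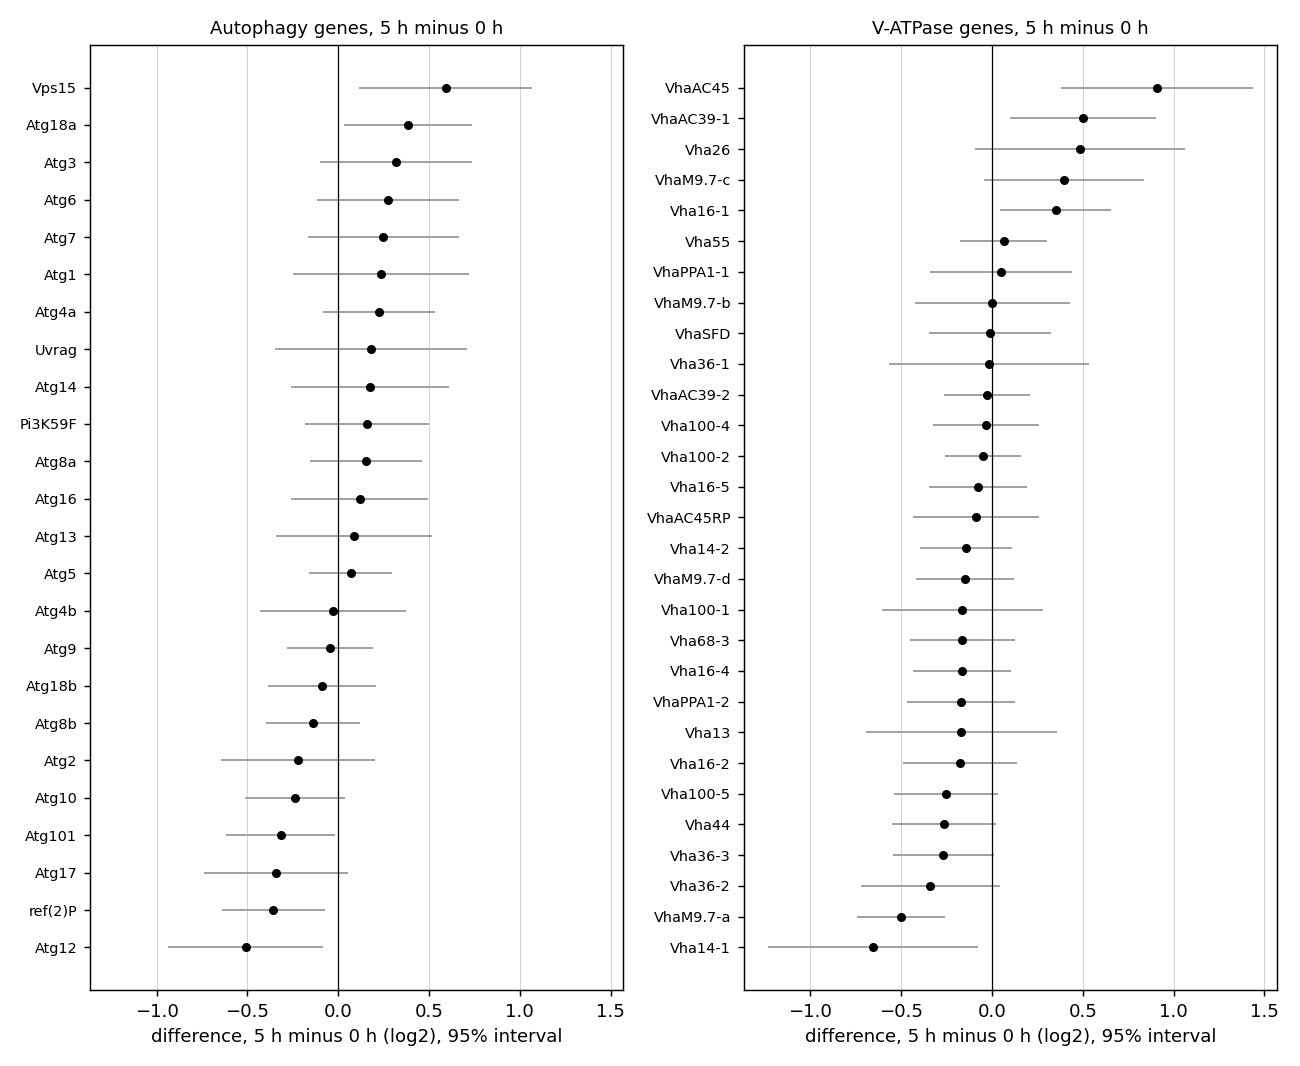
Difference in level at 5 h minus 0 h (horizontal axis, log2) for the 24 autophagy genes (left) and the 29 V-ATPase genes (right), sorted by size; points are limma estimates and bars their 95% intervals. No gene passed an adjusted p of 0.05; *VhaAC45* has the highest estimate at 0.91 and *Vha14-1* the lowest at -0.65.

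The lowest adjusted p belonged to *VhaM9.7-a*. Its 3 arrays at 5 h averaged 6.99 ± 0.12 (SD) and its 6 arrays at 0 h 7.49 ± 0.13 (SD), a difference of -0.50 with a standard error of 0.11 and an adjusted p of 0.052 in limma. The difference is 1.41-fold on the linear scale. *VhaAC45* followed, with 7.51 ± 0.22 at 5 h and 6.60 ± 0.46 at 0 h, a difference of 0.91 with a standard error of 0.24, or 1.88-fold, and an adjusted p of 0.097. Both crossed the threshold when 0 h replicate 1 was left out, with adjusted p of 0.049 for *VhaM9.7-a* and 0.043 for *VhaAC45*. Neither passed with any other array left out, where the adjusted p reached 0.31 for *VhaM9.7-a* and 0.43 for *VhaAC45*, both without 5 h replicate 3. With the actin gap between 3' and 5' probe sets as a covariate, the difference of *VhaAC45* was 0.08 and that of *VhaM9.7-a* -0.66, and no probe set of the array passed. Since that gap did not overlap between ages, this fit can hardly tell the gap from age, and the part of either was not tested.

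The next differences were of similar size and did not pass. *Vha14-1* differed by -0.65 with a standard error of 0.26 and an adjusted p of 0.28. *Vps15* differed by 0.59 with a standard error of 0.22 and an adjusted p of 0.23. *VhaAC39-1* differed by 0.50 and *Vha26* by 0.49, with adjusted p of 0.23 and 0.41. In all 4 genes the 0 h arrays varied more than the 5 h arrays, with SDs of 0.33 to 0.53 at 0 h against 0.10 to 0.24 at 5 h.

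*Atg12* differed by -0.51 and *ref(2)P* by -0.36, with adjusted p of 0.26 and 0.23. *Atg18a* differed by 0.39 with an adjusted p of 0.30 and *Vha16-1* by 0.35 with an adjusted p of 0.27, although the second probe set of *Vha16-1*, near background, differed by -0.24. For the genes shown as 1 per role, the 95% interval of the difference was -0.15 to 0.46 for *Atg8a*, -0.28 to 0.19 for *Atg9*, -0.18 to 0.31 for *Vha55* and -0.35 to 0.33 for *VhaSFD*. For *Vha100-1* it was -0.60 to 0.28.

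**Figure D4:**
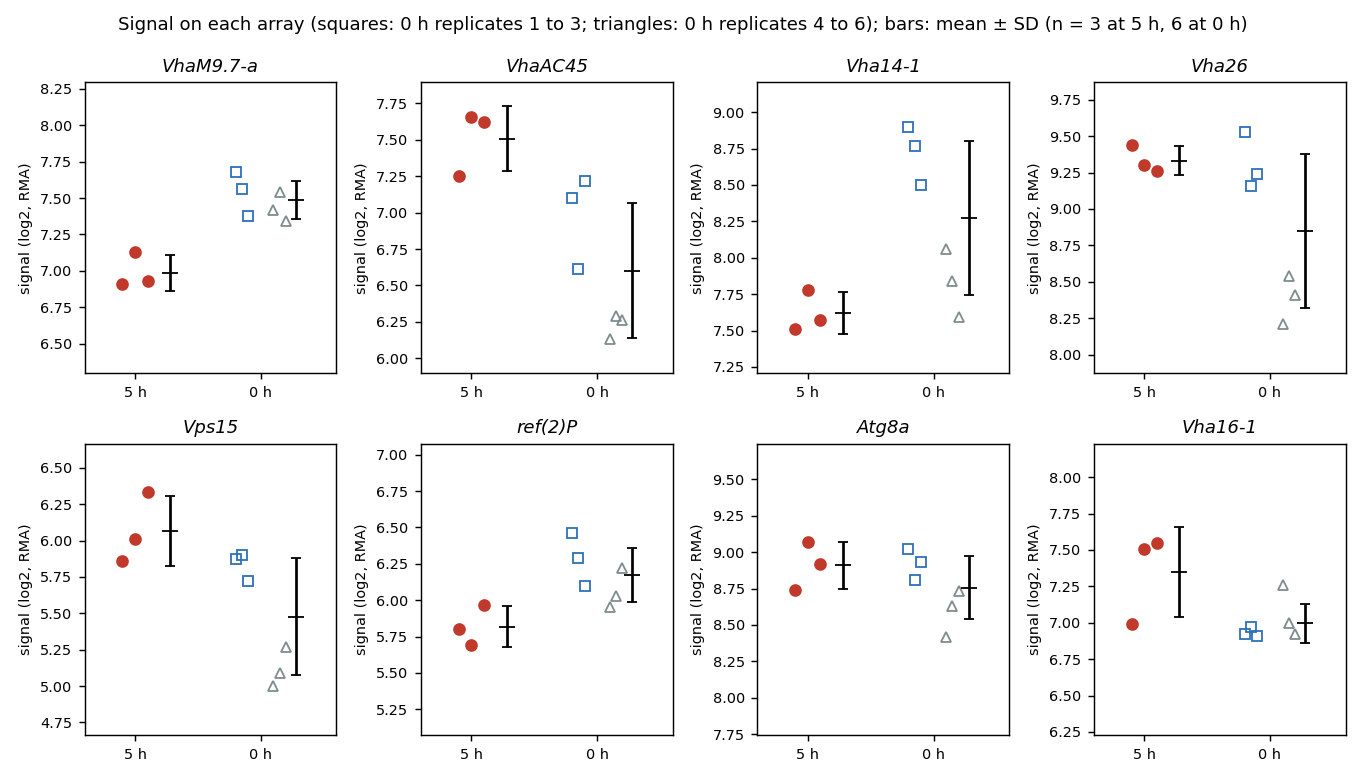
Levels of *VhaM9.7-a*, *VhaAC45*, *Vha14-1*, *Vha26*, *Vps15*, *ref(2)P*, *Atg8a* and *Vha16-1* on each array (vertical axis, log2 RMA signal, the same span of 2 units in every panel), 5 h left of 0 h. Circles are 5 h arrays, squares 0 h replicates 1 to 3, triangles 0 h replicates 4 to 6, and black bars the mean and SD of each age. *VhaM9.7-a* and *VhaAC45* are the panels without overlap between ages; in *Vha26*, *Vha14-1* and *Vps15* the squares and triangles stand apart.

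As lists, the median difference at 5 h minus 0 h was 0.10 for autophagy, with 14 of 24 genes positive, and -0.09 for the V-ATPase, with 21 of 29 negative, against -0.07 for all probe sets, of which 36.7% were positive. The autophagy median turned to -0.03 when the arrays were quantile normalized again, to -0.03 against 0 h replicates 1 to 3 alone and to -0.14 with the actin gap as a covariate, while the V-ATPase median was negative under these settings too. The median level per array gave the other sign for autophagy, 5.93 ± 0.10 at 5 h and 6.0 ± 0.24 at 0 h. For the V-ATPase it was 5.27 ± 0.06 at 5 h and 5.29 ± 0.14 at 0 h.

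By role, the lipid kinase complex was the one group of genes whose 5 differences were all positive, from 0.16 to 0.59, though 1 turned negative after repeated quantile normalization, 1 against 0 h replicates 1 to 3 and 2 with the actin gap as a covariate. The Atg1 complex was split, with 2 of 4 genes positive, and 1 of 4 genes for membrane supply and 6 of 10 of conjugation were positive. In V1, 9 of 11 genes were negative, with a median of -0.16, and in V0 11 of 16, with a median of -0.06. Of the 16 dim V-ATPase genes 14 were negative, with a median of -0.15, against 7 of 13 bright ones, with a median of -0.02. With each array centred on its own median, which moved the median of all probe sets to -0.02, the dim genes had 11 of 16 negative and V1 7 of 11.

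What a member showed depended on which 0 h arrays stood as the baseline. These comparisons share the 5 h arrays, so their values are given side by side. Their p-values leave out the spread between the 0 h sets, which were divided with earlier results known. Whatever sets the 0 h sets apart cannot be told from age in either comparison. Rose and fell mean here higher and lower at 5 h than in the 0 h set named. Against 0 h replicates 1 to 3, 0 members rose and 5 fell in limma, where 8.11% of all probe sets passed, 4.37% as higher and 3.74% as lower. The genes that fell were *Atg12*, *ref(2)P*, *Vha14-1*, *Vha13* and *VhaM9.7-a*. Against 0 h replicates 4 to 6, 8 members rose and 6 fell, where 22% of all probe sets passed, 12.5% as higher and 9.5% as lower. Those that rose were *Atg1*, *Vps15*, *Atg7*, *Vha36-1*, *Vha26*, *VhaAC39-1*, *VhaM9.7-c* and *VhaAC45*, and those that fell were *Atg17*, *Atg101*, *Vha36-3*, *Vha100-5*, *Vha16-2* and *VhaM9.7-a*. *Atg7* and *Atg17* were called although below background on every array.

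*VhaM9.7-a* passed against each set, with -0.55 and an adjusted p of 0.012 against replicates 1 to 3 and -0.45 and 0.029 against replicates 4 to 6. It was the only member to do so. *Vha26* showed the other extreme: 0 h replicates 1 to 3 read 9.53, 9.16 and 9.24 and replicates 4 to 6 read 8.21, 8.54 and 8.41. The first of these sets lay around the 5 h levels given above and the other below all of them. Its difference was 0.02 with an adjusted p of 0.95 against replicates 1 to 3, and 0.95 with an adjusted p of 0.0012 against replicates 4 to 6. *Vps15* likewise differed by 0.24 (adjusted p of 0.34) and by 0.95 (adjusted p of 0.0023).

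*Vha14-1* ran the opposite way. Its 0 h replicates 1 to 3 read 8.90, 8.77 and 8.50, above every 5 h array, and replicates 4 to 6 read 8.06, 7.84 and 7.59, overlapping them. It fell by 1.1 against replicates 1 to 3, with an adjusted p of 0.0009, and differed by -0.21 against replicates 4 to 6, with an adjusted p of 0.31. *Vha13* fell by 0.59 against replicates 1 to 3 (adjusted p of 0.0033) and differed by 0.25 against replicates 4 to 6 (adjusted p of 0.16). *VhaAC45* differed by 0.53 against replicates 1 to 3 (adjusted p of 0.087) and rose by 1.28 against replicates 4 to 6 (adjusted p of 0.00048).

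In 5 members the sign turned and 1 of the comparisons passed: *Atg1*, *Atg7*, *Vha36-1*, *Vha13* and *Vha16-2*. *Vha36-1* differed by -0.43 against replicates 1 to 3 (adjusted p of 0.13) and rose by 0.40 against replicates 4 to 6 (adjusted p of 0.041). No member passed in opposite directions against the 2 sets, which 0.294% of all probe sets did. The sign of the difference was opposite for 8 of 24 autophagy genes and 10 of 29 V-ATPase genes, against 38.9% of all probe sets. Lower than replicates 1 to 3 and higher than replicates 4 to 6 were 7 of 24 (29.2%) and 6 of 29 (20.7%), against 13.2% of all probe sets. The list medians were -0.03 and 0.26 for autophagy, -0.07 and -0.13 for the V-ATPase and 0.00 and -0.12 for all probe sets, each against replicates 1 to 3 and then 4 to 6.

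Within the V-ATPase the bright and dim genes separated the 0 h sets in opposite directions. Replicates 1 to 3 all exceeded replicates 4 to 6 for 8 of the 13 bright genes and 1 of the 16 dim genes, where 16.3% of all probe sets did so. They all lay below for 0 of the 13 bright genes and 8 of the 16 dim genes, where 27.3% of all probe sets did so. The median level of the bright genes was 7.51 to 7.76 on the 5 h arrays, 7.95 to 8.46 on 0 h replicates 1 to 3 and 7.46 to 7.54 on replicates 4 to 6. Not divided by level, both lists were mixed: 9 of 29 V-ATPase and 8 of 24 autophagy genes all above, and 8 of 29 and 4 of 24 all below. The autophagy genes above were *Atg1*, *Atg13*, *Atg3* and *Atg8a*, with means over 6, and the dimmer *Vps15*, *Uvrag*, *Atg4b* and *Atg7*. Those below were *Atg10*, with a mean over 6, and the dimmer *Atg17*, *Atg101* and *Atg8b*. Shares among all probe sets of matched level were not computed.

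**Figure D5:**
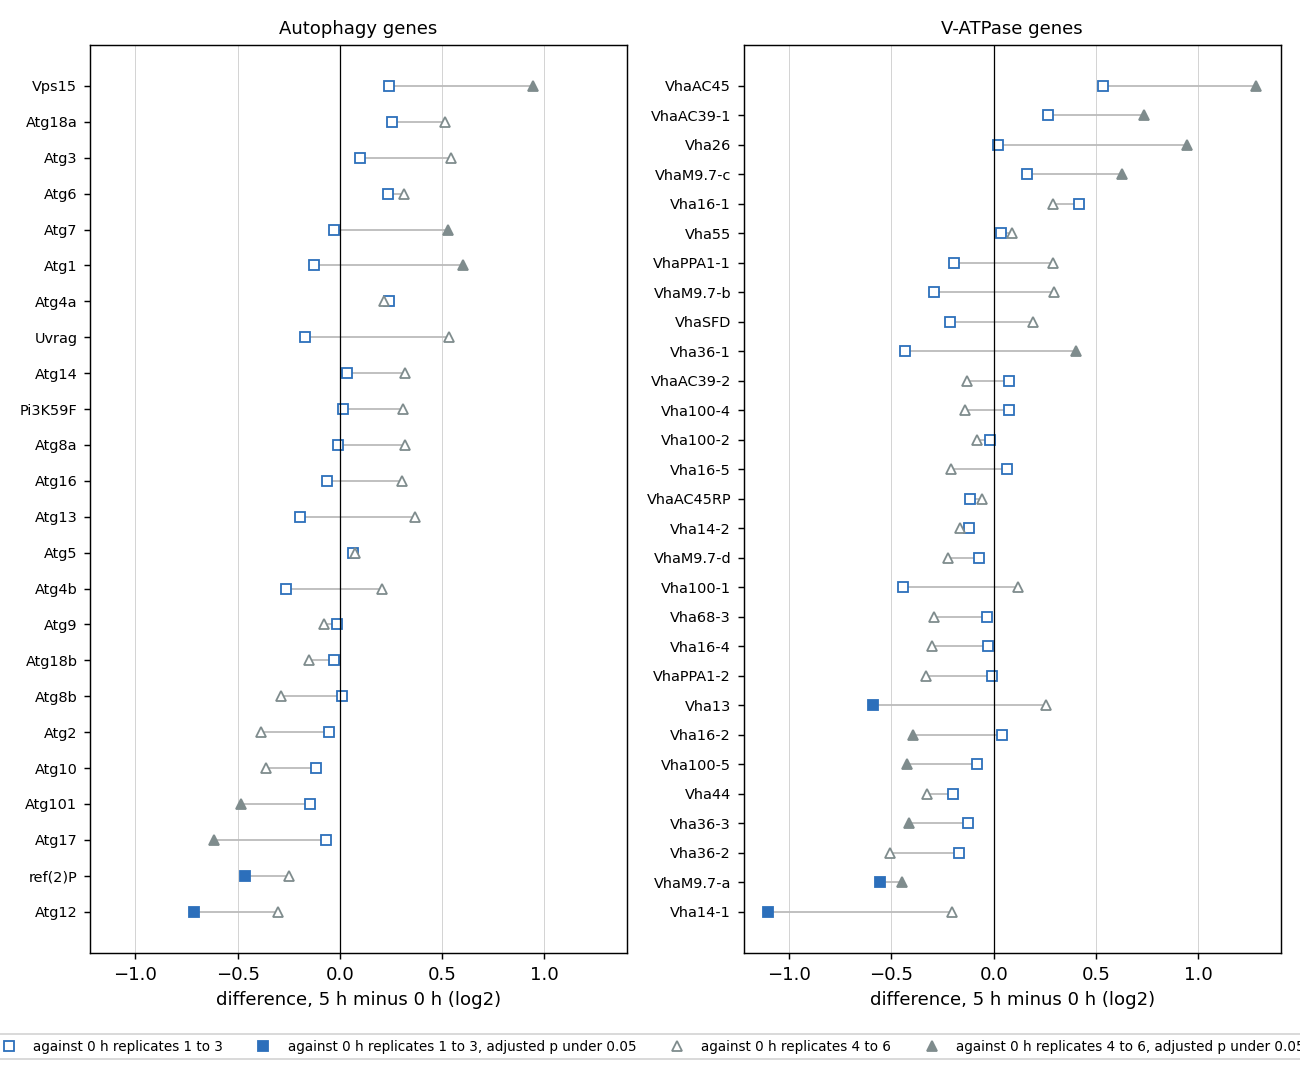
Difference in level at 5 h minus 0 h (horizontal axis, log2) for each autophagy gene (left) and V-ATPase gene (right), against 0 h replicates 1 to 3 (squares) and against 0 h replicates 4 to 6 (triangles), joined by a grey line; filled symbols have an adjusted p under 0.05. *VhaM9.7-a* is filled in both, and *Vha26* and *Vps15* have differences of 0.02 and 0.24 for squares against 0.95 for both triangles.

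Genes that work beside these machines were read from lists of lysosomal contents, fusion and tethering factors, and lysosomal signalling or pump assembly. Of 26 lysosomal genes measured, 3 rose at 5 h, 0 fell and 23 did not pass, against 1.01% of all probe sets higher and 0.236% lower. *Ids*, a lysosomal sulfatase, had 7.71 ± 0.09 at 5 h and 6.47 ± 0.24 at 0 h, 2.35-fold higher with an adjusted p of 0.0023 in limma. *Hexo2*, a hexosaminidase, had 7.84 ± 0.25 at 5 h and 6.92 ± 0.31 at 0 h (1.88-fold, adjusted p of 0.040), and *beta-Man*, a beta-mannosidase, 6.47 ± 0.35 at 5 h and 5.70 ± 0.16 at 0 h (1.70-fold, adjusted p of 0.037). All 3 encode enzymes that act on sugar chains. Each of the 3 passed against 0 h replicates 1 to 3 and against replicates 4 to 6, where 8.11% and 22% of all probe sets passed. None passed with the actin gap as a covariate, where the difference of *Ids* was 0.96. *Ids* also passed with any 1 array left out (adjusted p of 0.00073 to 0.028). With 1 array left out *Hexo2* differed by 0.81 to 1.05, and its call was lost without 0 h replicate 3, 5 or 6 or any 5 h array (adjusted p up to 0.27). Likewise *beta-Man* differed by 0.58 to 0.92, and its call was lost without 0 h replicate 2, 3 or 6 or any 5 h array (adjusted p up to 0.18). Averaged over its probe sets, *beta-Man* differed by 0.33 with an adjusted p of 0.22, and after repeated quantile normalization its adjusted p was 0.076. That of *Hexo2* was 0.055 with a trended and robust prior and 0.056 with a replicate block. The largest negative difference in this list was that of *Npc2a*, a sterol carrier, with -0.60 and an adjusted p of 0.070. Its 5 h arrays lay below all 0 h arrays, as for 4.4% of all probe sets. It passed as lower against 0 h replicates 1 to 3 (adjusted p of 0.0091) and replicates 4 to 6 (0.028). After repeated quantile normalization it passed too (0.0095), but not after centring (0.10).

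Of 15 fusion and tethering genes 0 passed in limma, with 3 higher and 0 lower before adjustment at p of 0.05, against 9.17% and 5.52% of all probe sets. Of their differences 13 of 15 were positive, with a median of 0.14, against 36.7% of all probe sets, but against 0 h replicates 1 to 3 alone 8 of 15 were positive, with a median of 0.01. *lt*, a subunit of the HOPS tethering complex, averaged 7.68 ± 0.37 at 5 h and 6.51 ± 0.97 at 0 h, with an adjusted p of 0.28; its mean was 7.31 in 0 h replicates 1 to 3 and 5.71 in replicates 4 to 6. Of 16 signalling and assembly genes 0 passed, with 0 higher and 1 lower before adjustment at that p and a median of -0.13. *Lamtor1*, an anchor of growth signalling on the lysosome, averaged 5.55 at 5 h and 6.11 at 0 h, a difference of -0.55 with an adjusted p of 0.15.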

How the data were processed

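Per the submitters' processing notes, the authors made the deposited log2 values of 10 Affymetrix Drosophila Genome arrays with RMA in Affymetrix Expression Console. Versions, and which arrays were processed together, are not given in the sources used here; column medians ran from 4.30 to 4.44. Per the labels, RNA was amplified in 2 rounds.

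Of 14010 probe sets, 44 Affymetrix controls were left out. In the platform annotation 12443 of the rest had 1 symbol, 327 several and 1196 none; a probe set that names *Atg10* beside another gene was not used. All 53 members matched the RefSeq gene table with the same symbol. No build is named in the files; coordinates and sequences were not used here.

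With limma 3.58.1 under R 4.3.3, two-sided moderated tests without a filter compared 3 arrays at 5 h with 6 at 0 h, adjusted by Benjamini-Hochberg over 13966 probe sets at a threshold of 0.05. Permutation tests used scipy 1.17.1. On simulated data over 13966 probe sets limma recovered 31.3% of shifts of 0.5 log2 units, 85.1% of 1 and 100% of 2. Recovery with 0 h arrays that fall into sets, or that vary more than the 5 h arrays, was not tested. No 2 arrays were alike (SD of their difference at least 0.17), and their number limits the precision.

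The members, the gene lists and the division of the 0 h arrays were chosen with earlier results of these data known. Single arrays are given for the 3 largest differences per direction in each list, 1 gene per role (*Vha68-2*, chosen for this, has no probe set of its own) and members past a threshold; others were added after their values were seen. Alternatives were the 0 h sets, repeated quantile normalization, centring, a filter on dim probe sets, array weights, a trended and robust prior, averaging the probe sets of a gene, the actin gap as a covariate, a replicate block, other thresholds and each array left out.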

Additional observations from a re-analysis of the deposited data

Results flagged for a closer look

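Among 55 groups of arrays examined with Dixon's test, 2 held an array far from the others, where chance alone gives about 1 in 20. *Vha36-2*, a copy of the D subunit, read 5.15 in 0 h replicate 4 and 4.29 to 4.43 in the other 0 h arrays. *Vha16-1*, of the c ring, read 7.26 in the same array and 6.91 to 7.0 in the others.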

How the results depend on the processing

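The counts of calls moved with most settings. Over all probe sets, 141 were higher and 33 lower at 5 h. There were 610 higher and 522 lower with 0 h replicates 1 to 3 alone, 1750 and 1327 with replicates 4 to 6 alone, 153 and 101 after repeated quantile normalization, 140 and 20 after centring, and 1106 and 703 with array weights. The trended and robust prior gave 21 lower, an adjusted p of 0.01 gave 26 and 6, and an unadjusted p of 0.05 gave 1280 and 771. With the actin gap as a covariate, a fit that can hardly separate the gap from age, limma called 0 and 0, with 286 and 266 at an unadjusted p of 0.05. Leaving out 1 array gave 14 (without 5 h replicate 3) to 347 (without 0 h replicate 1) higher and 5 to 54 lower. Of autophagy genes, 0 passed as higher or lower in the comparison reported; there were 3 higher and 2 lower with replicates 4 to 6, 2 lower with replicates 1 to 3, 1 lower after quantile normalization (*ref(2)P*), 1 higher and 2 lower with array weights, 2 and 3 at an unadjusted p, and 0 to 0 in each direction with 1 array left out. Of V-ATPase genes, again 0 in the comparison reported, there were 5 higher and 4 lower with replicates 4 to 6, 3 lower with replicates 1 to 3, 1 lower after quantile normalization (*VhaM9.7-a*), 2 and 2 with array weights, 3 and 2 at an unadjusted p, and 0 to 1 in each direction with 1 array left out. The difference of *Vha36-1* turned to 0.40 with replicates 4 to 6. The autophagy median of 0.10 was -0.14 with the actin gap and 0.03 to 0.18 with 1 array left out, the V-ATPase median of -0.09 was -0.13 to -0.07, and their difference of 0.19 was -0.11 with the actin gap and 0.11 to 0.26 with 1 array left out. The difference of 0.79 between the lists in level was -0.65 over genes above background, a filter that keeps 20 of 24 autophagy and 23 of 29 V-ATPase genes. It was 0.72 to 0.82 with 1 array left out. Apart from these listed settings, the causes of the moves were not tested.

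Arrays of both ages with the same replicate number in their descriptions had deviations that correlated at -0.33, -0.13 and -0.23. The titles of the 5 h arrays carry other numbers. By title, 5 h replicate 1 matches 0 h replicate 2 (0.19) and 5 h replicate 2 matches 0 h replicate 3 (0.05). Whether arrays of the ages were paired cannot be told from these values. The block that follows uses the numbers of the descriptions. A replicate block over replicates 1 to 3 of both ages gave 393 higher and 350 lower probe sets, and 3 lower V-ATPase genes (*Vha14-1*, *Vha13* and *VhaM9.7-a*). Between 0 h arrays the spread, and for 8 members a signal below background on every array, limit what 3 arrays against 6 can show.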

Other observations

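The array whose title and age disagree read 6.99 for *VhaM9.7-a*, 7.04 for *VhaAC45*, 7.83 for *Vha14-1*, 9.36 for *Vha26*, 6.19 for *Vps15*, 5.99 for *ref(2)P* and 8.77 for *Atg8a*. It lay within the range of the 5 h arrays for 23 of 53 members and within that of the more numerous 0 h arrays for 41, and outside both for 7. Its summed glial signal was 697, against 621 to 764 on the 5 h arrays and 278 to 455 on the 0 h arrays, and its actin gap between 3' and 5' controls was 8.44, against 8.46 to 8.63 on the 5 h arrays and 7.45 to 8.10 on the 0 h arrays. Its hemocyte and salivary gland sums, 156 and 89, also lay within the 5 h range only. By contrast, its mushroom body, neuron and fat body sums, 3885, 310 and 1808, lay within the 0 h range only. Its median level over autophagy genes was 6.05, against 5.836 to 6.027 at 5 h and 5.715 to 6.273 at 0 h. Over V-ATPase genes its median was 5.43, against 5.202 to 5.324 at 5 h and 5.149 to 5.513 at 0 h. Its age was not settled by these values.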
